A study of Mus musculus with 12 samples.

Results

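The Rab family described here comprises every gene whose symbol is Rab followed by a digit, 72 of the 18193 genes read from a set of 12 expression arrays of mouse macrophages. Besides the small GTPases, the symbol rule takes in 5 Rab11 family interacting protein genes, the Rab3 regulators Rab3gap1, Rab3gap2, Rab3il1 and Rab3ip, the gene Rab5if, and the opposite-strand RNAs Rab10os, Rab26os and Rab11fip4os1. The cells were peritoneal macrophages of thioglycollate-injected mice of 3 genotypes, without IRAK1 and IRAK2 (below, the double knockout), without IRAK2 alone (the IRAK2 knockout), or wild type. Each genotype was sampled at 0, 2, 4 and 8 h of MALP-2 at 100 ng/ml, a bacterial-type lipopeptide sensed by TLR2 with TLR6, and each combination of genotype and time is 1 array without a replicate. The age and strain of the mice, the alleles' construction and any pooling of animals are not given in the sources used here. The comparisons ask how the transcripts respond to MALP-2 and how that changes without IRAK2, or without both kinases that relay Toll-like receptor signals from the adaptor MyD88.

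Rab GTPases are molecular switches on membranes. Exchange factors load them with GTP, GTPase-activating proteins switch them off, and in the GTP-bound state each recruits effectors that move, tether or fuse a particular kind of vesicle. In macrophages they govern phagosome maturation, the recycling of receptors to the surface, the delivery of Toll-like receptors to and from endosomes, and secretion.

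Values are log2 expression values, 1 probeset per gene, so a difference of 1 is a 2-fold change. Of the 72 members, 56 averaged at or above a floor of 3.83 (the median over the 11 arrays other than the unstimulated double knockout) and were tested. The other 16 were Rab11fip4os1, Rab17, Rab25, Rab26, Rab27b, Rab30, Rab33a, Rab36, Rab37, Rab39b, Rab3b, Rab3c, Rab40b, Rab44, Rab6b and Rab9b, among them the epithelial Rab17 and Rab25 and the neuronal Rab3b, Rab3c and Rab6b. The unstimulated double-knockout array stood apart, with correlations of 0.764 to 0.804 with the rest, whereas every pair among the other 11 reached at least 0.954, and it is used in no test. On the 3 stimulated double-knockout arrays the actin signal differed by -4.25, -4.68 and -3.87 log2 between the 5' and the 3' probeset at 2, 4 and 8 h, against -3.72 to -3.18 on the 8 arrays of the other genotypes. For Gapdh these differences were -5.29, -5.90 and -4.36 against -3.84 to -3.42. Irak2 read 5.19, 4.61 and 5.09 at 2, 4 and 8 h in the double knockout, 5.51, 4.71 and 4.65 in the IRAK2 knockout, against 6.69, 6.29 and 5.77 in wild type, and was called lower in both knockouts. Irak1 read 8.25, 8.31 and 8.11 in the double knockout, against 8.48, 8.46 and 8.48 in wild type, a difference that was not called (adjusted p 0.12). The sources used here do not place these probes against the deletions. All 8 macrophage markers were above the floor, none of 4 T and NK cell markers was, and 3 of 6 neutrophil, 2 of 3 B cell, 1 of 5 eosinophil and mast cell, 2 of 4 dendritic cell and 2 of 5 mesothelial and stromal markers were. Mrc1 read 9.26, 9.08 and 9.13 at 2, 4 and 8 h in the double knockout, against 7.99, 7.36 and 6.87 in wild type. Cd14 read 10.15, 9.24 and 8.10, against 11.30, 11.055 and 10.70. Csf1r was also higher in the double knockout at each of these times, and Adgre1, Lyz2, Fcgr1 and Itgam were lower. Cd68 was mixed, and Itgam lay just under the floor at 4 h in the double knockout. The neutrophil list averaged 4.92 to 5.05 on the stimulated double-knockout arrays, against 5.37 to 5.98 on the 8 arrays of the other genotypes, with Ngp under the floor on all 11. The eosinophil and mast cell list averaged 3.75 to 3.997 on the stimulated double-knockout arrays, against 3.41 to 3.65 on those 8, with Prg2, Epx and Mcpt4 under the floor on all 11 and Cpa3 at 4.90, 5.85 and 5.09 at 2, 4 and 8 h in the double knockout, against 4.29, 4.02 and 3.92 in wild type. The B cell list averaged 3.63 to 3.78, against 3.79 to 4.57, and the T and NK cell list 3.499 to 3.83, against 3.36 to 3.58, with Cd3g, Cd8a and Ncr1 under the floor on all 11 and Cd3e at 4.54, 3.59 and 4.64 in the stimulated double knockout, against 3.95, 3.81 and 3.74 in wild type. The dendritic cell list averaged 3.94 to 4.29, against 3.72 to 4.66, with Zbtb46 at 7.14, 6.61 and 6.15, against 6.77, 5.51 and 5.25 in wild type. Ccl22 went the other way, at 3.52, 3.29 and 3.28, against 5.27, 5.30 and 5.12 in wild type. Flt3 and Ccr7 were under the floor on all 11. In the mesothelial and stromal list Col1a1 read 10.48 to 10.85 on the 11 arrays, while Msln and Krt19 were under the floor on all 11. The part of these cell types in the results was not tested. In such bulk RNA, fewer cells of a type and less RNA per cell cannot be told apart.

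Exposure to MALP-2 moved part of the family in both directions. The response was fitted with limma on the 8 arrays of the IRAK2 knockout and wild type, with genotype as a second factor, and a gene was called where its p, adjusted by Benjamini-Hochberg over all 10856 genes, was under 0.05. At 2 h, 9 members rose and 17 fell, beside 16.2% and 29% of all genes, so 26 of 56 were called, beside 45.2%. At 4 h again 9 rose and 17 fell, beside 17.2% and 23.1% and a total of 40.3%. At 8 h, 7 rose and 15 fell, beside 14.7% and 18% and a total of 32.7%. Changes of at least 1 log2 were called for 13, 11 and 5 members at the 3 times, or 23.2%, 19.6% and 8.93%, beside 11.4%, 11% and 8.02% of all genes. The median member changed by -0.16, -0.085 and -0.053, and the median of all genes tested by -0.122, -0.039 and -0.03. The share of members called was close to that of all genes, while at 2 and 4 h the share with a called change of at least 1 log2 was higher than over all genes, a difference that was not tested. At each of the 3 times the same 7 members rose (Rab10, Rab11fip1, Rab12, Rab20, Rab26os, Rab32 and Rab3ip) and the same 13 fell, as did 8.23% and 12.6% of all genes, while 26 members were called at no time. On single arrays, 11, 11 and 4 members were at least 1 log2 from their own 0 h value in the IRAK2 knockout at 2, 4 and 8 h, beside 10%, 9.26% and 6.17% of all genes measured, and 13, 13 and 11 in wild type, beside 13.1%, 12.3% and 10.7%. These p-values rest on how alike the response was in the 2 genotypes, and hold nothing on the spread between mice.

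**Figure D1:**
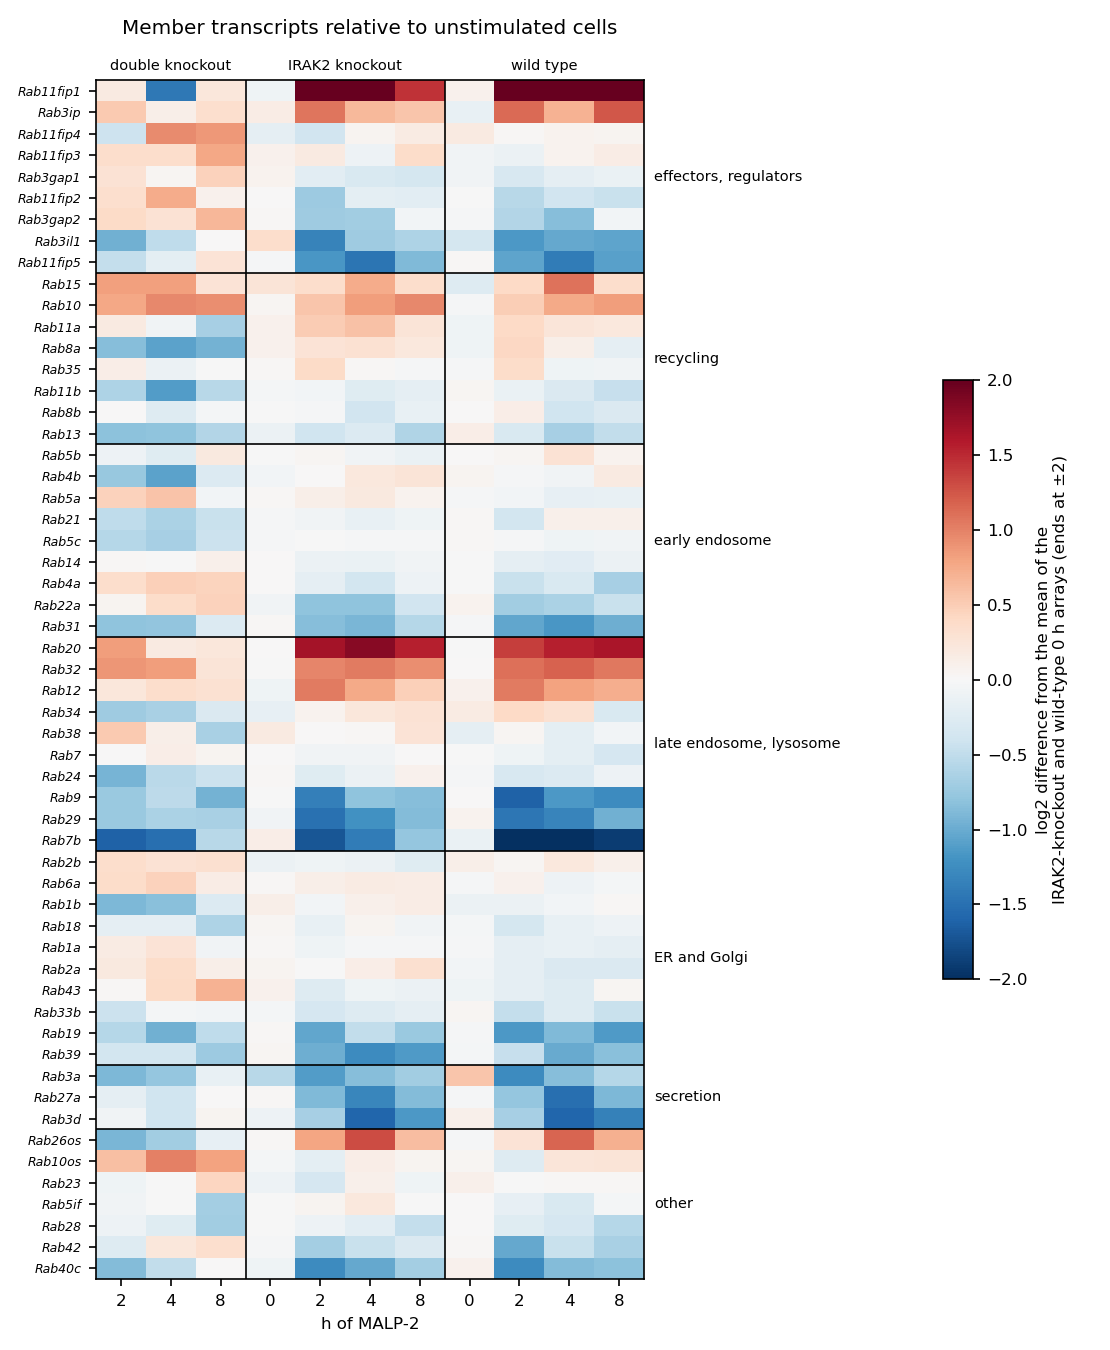
The 56 tested members are grouped by role (rows) over 11 arrays (columns, by genotype and by h of MALP-2), and colour gives the log2 difference from the mean of the 0 h arrays of the IRAK2 knockout and wild type, with the scale ending at 2 in either direction. Rab11fip1, Rab20 and Rab32 stand out as risen in the IRAK2 knockout and wild type, with paler or opposite colours for Rab11fip1 and Rab20 in the double knockout.

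Among the effectors, Rab11fip1 had the largest response of the 56 members. It encodes a Rab11-binding protein, also known as Rab coupling protein, that steers cargo from recycling endosomes to the surface. Its probeset read 5.43, 3.81 and 5.47 at 2, 4 and 8 h in the double knockout, 5.15, 9.47, 7.79 and 6.70 at 0, 2, 4 and 8 h in the IRAK2 knockout, against 5.34, 9.72, 8.92 and 8.51 in wild type. It thus jumped within 2 h and then subsided in both genotypes that were fitted, while the double-knockout values at 2 and 8 h were close to the 0 h values of those genotypes and the one at 4 h lay below them, just under the floor. The fitted response was 4.35 log2 at 2 h (standard error, SE, 0.35, adjusted p 5.6e-05), a 20.4-fold rise, then 3.11 at 4 h and 2.36 at 8 h. Further probesets of a gene are given without a test, and the second, dimmer one of Rab11fip1 changed by 2.36, 1.16 and 0.58 log2.

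None of the other 4 genes of the Rab11 family interacting proteins was called higher at any time. Rab11fip5, whose product also binds Rab11 on recycling endosomes and granules, read 10.04, 10.32 and 10.79 at 2, 4 and 8 h in the double knockout, 10.49, 9.36, 9.05 and 9.64 over 0 to 8 h in the IRAK2 knockout, against 10.54, 9.46, 9.12 and 9.43 in wild type. It fell at all 3 times, most at 4 h (-1.43 log2, SE 0.12, adjusted p 7.1e-05), and its second probeset changed by -1.09 log2 there. Rab11fip2 fell at 2 h alone (-0.64 log2, SE 0.13, adjusted p 0.0044), and a second probeset near the floor changed by 0.014. Rab11fip3 and Rab11fip4, the class II members with roles in endosome positioning and cell division, were called at no time.

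Of the Rab3 regulators, Rab3ip rose and Rab3il1 fell, although both encode Rabin-type exchange factors that activate Rab8. Rab3ip read 5.54, 5.13 and 5.35 in the stimulated double knockout, 5.16, 6.09, 5.67 and 5.57 over 0 to 8 h in the IRAK2 knockout, against 4.87, 6.15, 5.70 and 6.26 in wild type. The response at 2 h was 1.10 log2, SE 0.20, adjusted p 0.0032. Rab3il1 read 5.04, 5.49 and 6.02 in the stimulated double knockout, 6.36, 4.66, 5.30 and 5.38 in the IRAK2 knockout, against 5.65, 4.86, 4.97 and 4.95 in wild type, and fell by 1.24 at 2 h (SE 0.19, adjusted p 0.0013). All 4 of its probesets above the floor were lower at 2 h. Rab3gap2, the noncatalytic subunit of the Rab3 GTPase-activating complex, fell at 2 and 4 h by 0.64 and 0.77, and its catalytic partner Rab3gap1 was not called (-0.26 at 2 h, adjusted p 0.12).

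Of 10 late endosomal and lysosomal members tested, 3 rose and 3 fell at all 3 times, beside 8.23% and 12.6% of all genes, and 4 were called at no time. Rab20, a GTPase of phagosomes and macropinosomes in macrophages, read 5.77, 5.12 and 5.17 at 2, 4 and 8 h in the double knockout, 4.94, 6.61, 6.76 and 6.49 over 0 to 8 h in the IRAK2 knockout, against 4.93, 6.32, 6.49 and 6.57 in wild type. The 6 stimulated values of the IRAK2 knockout and wild type lay well above both 0 h values and did not return by 8 h. The response was 1.69 log2, SE 0.13, adjusted p 5.7e-05 at 4 h. Rab32, which serves lysosome-related organelles and restricts intracellular bacteria in macrophages, read 10.38, 10.32 and 9.75 in the stimulated double knockout, 9.49, 10.47, 10.52 and 10.41 in the IRAK2 knockout, against 9.49, 10.59, 10.67 and 10.54 in wild type. Its rise was likewise flat over time, 1.04, 1.10 and 0.99 log2. Its close relative Rab38 was called at no time (-0.09 at 4 h, adjusted p 0.62). Rab12, which sends receptors from recycling endosomes to lysosomes, read 5.94, 6.06 and 6.002 in the stimulated double knockout, 5.61, 6.74, 6.45 and 6.19 in the IRAK2 knockout, against 5.79, 6.75, 6.50 and 6.44 in wild type, and its response was 1.04, 0.77 and 0.61.

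The 3 that fell were Rab7b, Rab9 and Rab29. Rab7b, a late endosomal GTPase that in mouse macrophages promotes the degradation of TLR4 and TLR9, read 9.65, 9.76 and 10.72 at 2, 4 and 8 h in the double knockout, 11.39, 9.56, 9.86 and 10.49 over 0 to 8 h in the IRAK2 knockout, against 11.14, 9.06, 9.15 and 9.37 in wild type. It had the largest fall at 2 h of the 56 members, -1.95 log2, SE 0.19, adjusted p 0.00013, and 2 further probesets changed by -1.86 and -0.955 log2 at that time. Rab9, which returns mannose 6-phosphate receptors from late endosomes to the Golgi, read 7.95, 8.16 and 7.75 in the stimulated double knockout, 8.67, 7.32, 7.89 and 7.83 in the IRAK2 knockout, against 8.70, 7.07, 7.54 and 7.42 in wild type. Its change was -1.49 log2, SE 0.13, adjusted p 7.6e-05 at 2 h. Rab29, a GTPase of the Golgi and of stressed lysosomes that recruits the kinase LRRK2, changed by -1.47, -1.27 and -0.91 at 2, 4 and 8 h. The canonical late endosomal Rab7 was not called (-0.08 at 2 h, adjusted p 0.63), with 12.28, 12.20, 12.21 and 12.28 in the IRAK2 knockout, against 12.27, 12.19, 12.09 and 11.94 in wild type.

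**Figure D2:**
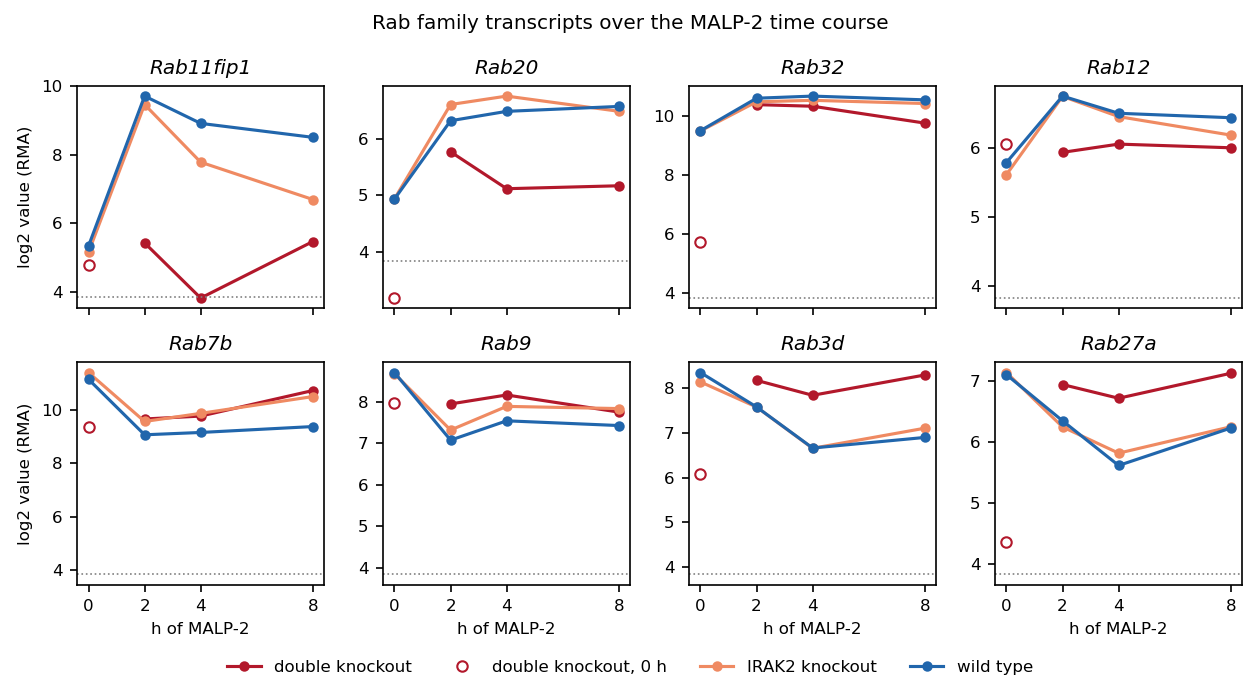
Each panel plots the log2 value of 1 member against h of MALP-2 in the double knockout (dark red), the IRAK2 knockout (orange) and wild type (blue), with the unstimulated double knockout as an open circle left unjoined and the floor of 3.83 as a dotted line. Rab11fip1 and Rab20 of the stimulated double knockout lie below both other genotypes at every time, and Rab3d and Rab27a lie above them.

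Of 9 genes of regulated secretion only 3 were tested, and these, Rab3a, Rab3d and Rab27a, fell at 2 and 4 h, when 29% and 23.1% of all genes fell. At 8 h Rab3a was not called. Rab3d, a GTPase of secretory granules, read 8.18, 7.85 and 8.30 in the stimulated double knockout, 8.15, 7.58, 6.66 and 7.11 over 0 to 8 h in the IRAK2 knockout, against 8.36, 7.59, 6.67 and 6.90 in wild type. Both fitted genotypes had their lowest value at 4 h, where the change was -1.59 log2, SE 0.12, adjusted p 6e-05. Rab27a, which docks lysosome-related organelles and exosome-bearing bodies at the plasma membrane, read 6.95, 6.73 and 7.14 in the stimulated double knockout, 7.15, 6.25, 5.82 and 6.26 in the IRAK2 knockout, against 7.11, 6.36, 5.62 and 6.24 in wild type. It too was lowest at 4 h, with a change of -1.41 log2, SE 0.11, adjusted p 6.6e-05. For Rab3a, best known from synaptic vesicles, the 0 h values of the 2 genotypes were 1 log2 or more apart, 4.59 in the IRAK2 knockout, against 5.70 in wild type, and the 2 h value of wild type lay close to the floor. On its second probeset the 0 h values were 4.70 in the IRAK2 knockout and 4.42 in wild type, so the direction depends on the probeset.

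Of the 9 early endosomal genes tested, Rab22a and Rab31, close relatives that work between endosomes and the trans-Golgi network, fell at all 3 times, beside 12.6% of all genes, and the other 7 were called at no time. The Rab22a probeset used changed by -0.75, -0.72 and -0.42 at 2, 4 and 8 h, but another of its probesets changed by 0.397, 0.207 and 0.139. Rab31 read 10.13, 10.14 and 10.66 in the stimulated double knockout, 10.95, 10.08, 10.01 and 10.35 over 0 to 8 h in the IRAK2 knockout, against 10.91, 9.89, 9.77 and 9.96 in wild type, a change of -1.04 log2, SE 0.12, adjusted p 0.0003 at 4 h. Its second probeset changed by -0.836 log2. The 3 Rab5 genes, which organise early endosomes, were not called: Rab5a changed by 0.04 at 2 h, Rab5b by 0.04 and Rab5c by -0.02. Among 8 recycling and plasma membrane genes, Rab10 rose at all 3 times, by 0.53, 0.79 and 0.90, with 8.94, 9.47, 9.75 and 9.88 in the IRAK2 knockout, against 8.88, 9.41, 9.66 and 9.74 in wild type. Rab10 carries TLR4 to the surface of mouse macrophages, and both further probesets of the gene changed in the same direction, by 1.28 and 1.05 log2 at 4 h. Rab11a, the marker GTPase of recycling endosomes, rose at 2 and 4 h by 0.45 and 0.42; Rab8b and Rab13 fell at 4 h by 0.39 and 0.47.

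Of the 10 members of the endoplasmic reticulum and Golgi tested, 2 fell at all 3 times, beside 12.6% of all genes: Rab19 by 1.09 and Rab39, which also acts on phagosomes, by 0.72 at 2 h. Rab33b fell at 2 h alone, by 0.41. Rab1a, Rab1b, Rab2a, Rab2b, Rab6a, Rab18 and Rab43 were called at no time, with changes at 2 h between -0.25 and 0.10. Of the 5 members with the highest mean level, Rab7, Rab1a, Rab8b, Rab14 and Rab31, only Rab31 responded at every time and Rab8b at 4 h. Among the remaining genes Rab40c, the substrate-recognition part of a ubiquitin ligase, fell by 1.26 at 2 h, and the opposite-strand RNA Rab26os rose by 1.24 at 4 h.

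Promoter sequences were set beside these responses because 7 members rose and 13 fell together. RefSeq promoters of 300 bases around the transcription start (GRCm38.p6) were found for 58 of the 72 members, among them 6 of the 7 that rose and 12 of the 13 that fell. The members left out are Rab11fip1, with the largest response, and Rab7b, with the largest fall at 2 h. Rab20 and Rab32 are shown as members that rose, and 1 of the 5 promoters of Rab3il1 as the one of the 12 falling members that holds a kappaB match. Capitals mark a motif match on either strand, the E-box CACGTG in Rab20 and the kappaB consensus in Rab3il1, and Rab32 holds none.
Rab20, chr8:11478591-11478890, minus strand: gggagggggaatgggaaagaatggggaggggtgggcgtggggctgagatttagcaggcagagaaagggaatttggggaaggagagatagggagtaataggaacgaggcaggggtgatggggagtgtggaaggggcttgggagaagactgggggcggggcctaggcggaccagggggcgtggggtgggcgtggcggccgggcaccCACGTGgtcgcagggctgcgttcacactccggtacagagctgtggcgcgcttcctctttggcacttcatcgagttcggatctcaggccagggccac
Rab32, chr10:10558158-10558457, minus strand: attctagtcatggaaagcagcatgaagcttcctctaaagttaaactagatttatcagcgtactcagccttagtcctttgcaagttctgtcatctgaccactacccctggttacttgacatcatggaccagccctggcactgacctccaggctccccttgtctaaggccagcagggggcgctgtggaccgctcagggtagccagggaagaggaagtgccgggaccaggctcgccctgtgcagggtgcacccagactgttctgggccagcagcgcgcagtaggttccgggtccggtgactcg
Rab3il1, chr19:10014797-10015096, plus strand: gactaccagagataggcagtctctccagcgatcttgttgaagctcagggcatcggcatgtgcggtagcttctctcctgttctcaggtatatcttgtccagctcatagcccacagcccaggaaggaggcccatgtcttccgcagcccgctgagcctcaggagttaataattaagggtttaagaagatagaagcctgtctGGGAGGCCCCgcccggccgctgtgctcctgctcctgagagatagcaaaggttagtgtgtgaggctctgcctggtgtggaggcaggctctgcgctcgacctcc

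The kappaB consensus, bound by NF-kappaB, occurred in the promoters of 0 of the 6 rising and 1 of the 12 falling members, of 5 of the 58 members, and of 9.55% of 27025 genes. It replaced 2 earlier kappaB patterns after their matches had been counted. The first and looser pattern, with every position but the flanking G and C letters free, occurred in 5 of 6 rising, 11 of 12 falling and 43 of 58 members, or 74.1%, beside 53.5% of all genes. The second and stricter pattern occurred in 0 of 6, in 1 of 12 (Rab9) and in 4 of 58, beside 5.48% of all genes. The counts thus depend on the pattern. The AP-1 pattern TGANTCA occurred in 0 of 6, 0 of 12 and 3 of 58, and in 8.97% of all genes. The E-box CACGTG occurred in 1 of 6 (Rab20), in 2 of 12 (Rab27a and Rab3il1) and in 9 of 58 members, or 15.5%, beside 8.09% of all genes. Both strands were searched, and every match of the consensus or of the stricter kappaB pattern is also a match of the looser one. Such a match is a description of the letters, and its absence says only that they are not in this window.

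Few members were far apart between the IRAK2 knockout and wild type. On the 9 stimulated arrays, fitted with genotype and time as factors, 0 of 56 members were called by limma, where 0.765% of all genes were, and 6 members had an unadjusted p under 0.05, beside 13.7% of all genes. When the double knockout was left out of the fit, 2 members were called, beside 5.2% of all genes, Rab11fip1 as lower and Rab7b as higher. Rab11fip1 differed from wild type by -0.25, -1.14 and -1.82 log2 at 2, 4 and 8 h, so the gap between single arrays was widest at 8 h (mean -1.07 log2, SE 0.48, adjusted p 0.37). Rab7b was higher by 0.50, 0.72 and 1.12 (mean 0.78 log2, SE 0.16, adjusted p 0.084). Whether these gaps changed with time was fitted as a slope on log2 time, and 0 members were called there (0.00921% of all genes); 1 member, Rab34, had an unadjusted p under 0.05, beside 4.94% of all genes. Between single arrays, 1 member was at least 1 log2 apart at 0 h (Rab3a), 0 at 2 h, 1 at 4 h (Rab11fip1) and 2 at 8 h (Rab11fip1 and Rab7b), beside 0.458%, 0.537%, 0.748% and 1.89% of all genes measured. The second Rab3a probeset went the other way at 0 h, with 4.70 in the IRAK2 knockout against 4.42 in wild type. The values of Rab20, Rab32, Rab3d and Rab27a in the IRAK2 knockout lay within 0.29 log2 of wild type at each stimulated time.

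More members were called in the comparison of the double knockout with wild type. Of 56, 21 were called higher and 15 lower over the stimulated times, beside 23.8% and 17.4% of all genes, and so 36 in all, beside 41.2%. At least 1 log2 was called for 6 members, beside 9.61% of all genes, and the median difference was 0.22 for members and 0.066 for all genes. The arrays of the groups did not overlap for 36 members, beside 40.5% of all genes, but these were not all the called ones. The called Rab5a, Rab34, Rab40c and Rab43 overlapped, while Rab14, Rab1a, Rab2b and Rab7 did not overlap and were not called. Without the 4 h arrays 16 members were called, beside 19.5% of all genes, and when all probesets of a gene were averaged 12 of 53 were called higher and 14 lower, beside 37.5% of all genes in either direction. Here a p-value sets a difference against how steady it was at 2, 4 and 8 h, and the array differences in 5' and 3' signal given above run with this comparison, and their part in it was not tested. Against the IRAK2 knockout, 15 members were called higher and 14 lower, beside 22.1% and 16.7% of all genes, and so 29 in all, beside 38.9%. Of these, 5 reached 1 log2, beside 8.01% of all genes, and without the 4 h arrays 12 were called, beside 14.5%. Called against wild type but not against the IRAK2 knockout were Rab11fip3, Rab2a, Rab31, Rab32, Rab3il1, Rab5a, Rab6a, Rab7b and Rab9. On single arrays, 4, 9 and 7 members were at least 1 log2 apart between the double knockout and wild type at 2, 4 and 8 h, beside 9.3%, 12.8% and 10.7% of all genes measured.

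**Figure D3:**
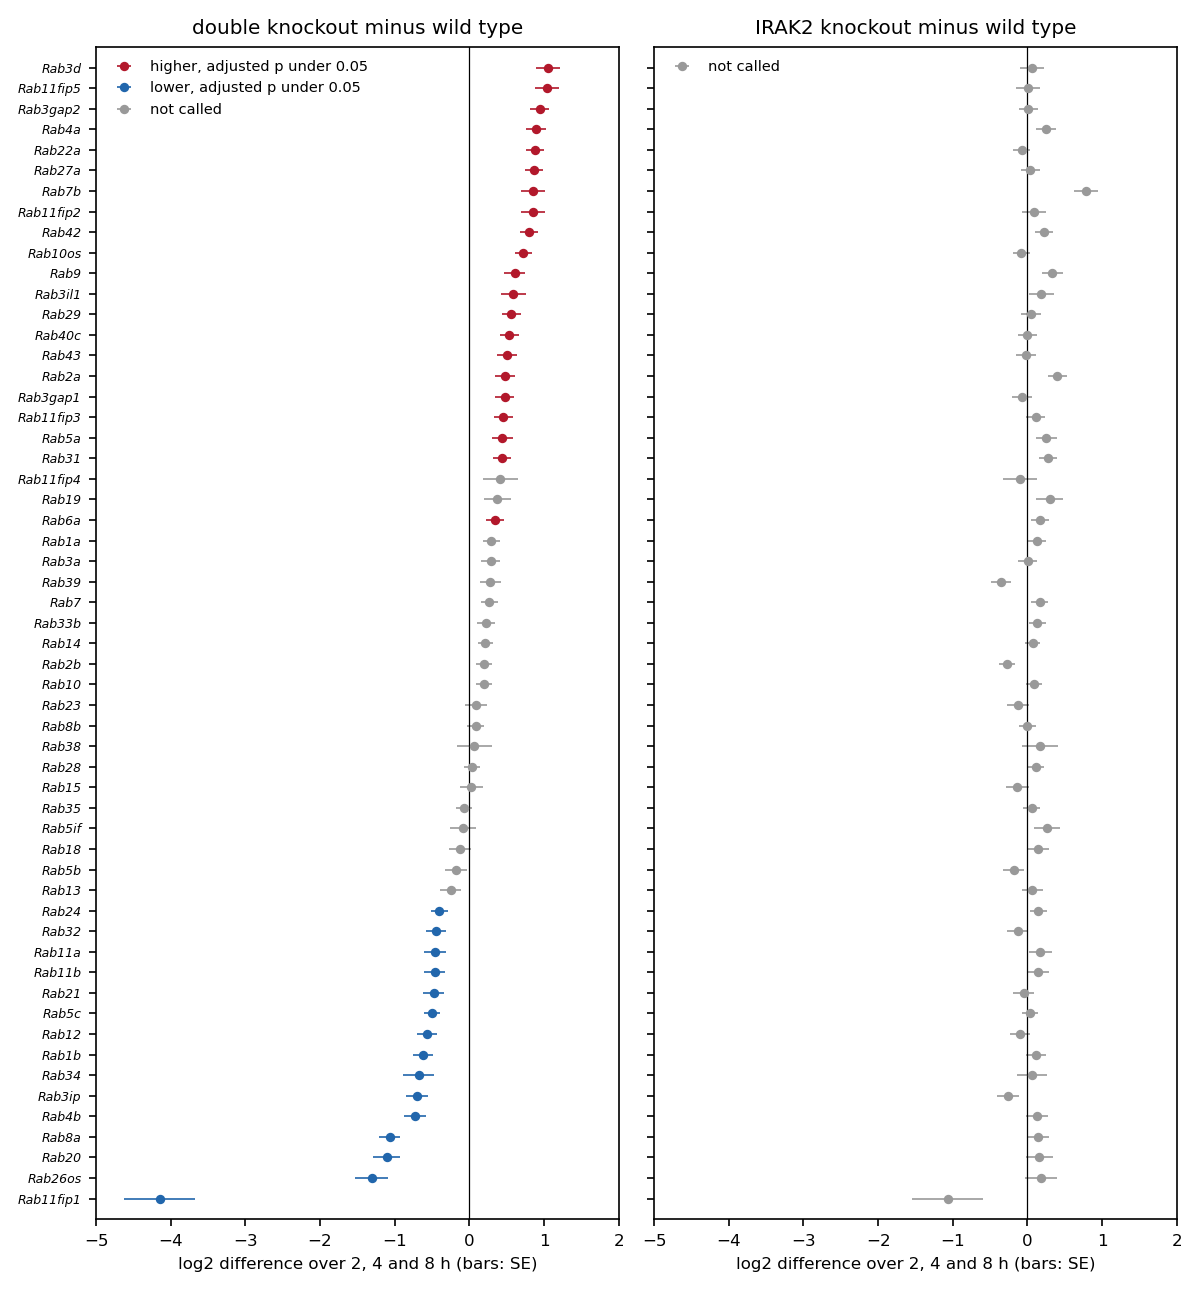
Points give each tested member's mean log2 difference over 2, 4 and 8 h, with the SE of the fit as bars, for the double knockout minus wild type (left) and the IRAK2 knockout minus wild type (right), in the same order. On the left 21 members are called higher and 15 lower, with Rab11fip1 far to the left at -4.15, and on the right no member is called.

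Lowest in the double knockout was Rab11fip1, at -4.15 log2, SE 0.48, adjusted p 0.00035 against wild type and -3.08 against the IRAK2 knockout. Its 5.43, 3.81 and 5.47 in the double knockout, 9.47, 7.79 and 6.70 in the IRAK2 knockout, against 9.72, 8.92 and 8.51 in wild type at 2, 4 and 8 h do not overlap between the double knockout and either other genotype. The double-knockout value at 4 h lies just under the floor, where small differences are poorly measured. Rab20 was lower by 1.11 (SE 0.18, adjusted p 0.0017), and its gap to wild type was -0.55 at 2 h, -1.37 at 4 h and -1.40 at 8 h. Rab26os was lower by 1.31, with 3.66, 3.89 and 4.42 in the double knockout and 4.86, 5.75 and 5.29 in wild type. Its double-knockout value lay under the floor at 2 h and just above it at 4 h, and the gene has a single probeset. Rab12, Rab3ip and Rab32 differed by -0.56, -0.70 and -0.45. For comparison, their responses at 4 h in the IRAK2 knockout and wild type were 0.77, 0.67 and 1.10; both contrasts use the same stimulated wild-type arrays.

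The other 9 members that were lower in the double knockout were Rab8a, Rab4b, Rab34, Rab1b, Rab5c, Rab21, Rab11b, Rab11a and Rab24. Rab4b, of fast receptor recycling, read 4.67, 4.37 and 5.16 in the double knockout, 5.44, 5.65 and 5.69 in the IRAK2 knockout, against 5.41, 5.36 and 5.62 in wild type (-0.73 log2, SE 0.15, adjusted p 0.005). Rab4a, its near relative, went the other way (0.90 log2, SE 0.13, adjusted p 0.0011), but its wild-type values of 3.64, 3.78 and 3.42 were all under the floor. Rab5c was lower by 0.50 and Rab5a higher by 0.44, and Rab5b, close to the floor throughout, was not called. Rab1b, which moves cargo between the endoplasmic reticulum and the Golgi, was lower by 0.62, and its relative Rab1a was not called (0.30, adjusted p 0.069). Rab11a was lower by 0.46, as was Rab11b by 0.47.

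Rab3d and Rab11fip5 led the members that were higher in the double knockout. Rab3d read 8.18, 7.85 and 8.30 in the double knockout, 7.58, 6.66 and 7.11 in the IRAK2 knockout, against 7.59, 6.67 and 6.90 in wild type, and differed from wild type by 1.06 log2, SE 0.16, adjusted p 0.0012. Rab27a read 6.95, 6.73 and 7.14 in the double knockout, 6.25, 5.82 and 6.26 in the IRAK2 knockout, against 6.36, 5.62 and 6.24 in wild type, a difference of 0.87 log2, SE 0.12, adjusted p 0.00093. For both, all 3 double-knockout values lay above all stimulated values of the other genotypes. Rab11fip5 was higher by 1.04 and Rab3gap2 by 0.94. Rab22a, at 9.05, 9.38 and 9.46 in the double knockout and 8.31, 8.38 and 8.57 in wild type, was higher by 0.88, while its other probesets above the floor differed by -0.146, 0.338 and -0.636. Rab9, Rab29 and Rab40c were higher by 0.61, 0.56 and 0.54. Rab7b differed from wild type by 0.85 but from the IRAK2 knockout by only 0.07 (adjusted p 0.75). As a slope over time 0 members were called, beside 0.138% of all genes, and 10 members had an unadjusted p under 0.05 there, beside 15% of all genes.

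Other probesets of the same gene often did not repeat the double-knockout difference. Of the 36 called members, 21 had another probeset above the floor, 34 probesets in all. Of these 34, 18 had the same sign as the probeset used and 16 had the other. Those of the other sign included differences as small as -0.001 (Rab3il1) and 0.008 (Rab11b) and as large as 1.35 (Rab8a). Over all called genes, 68.8% of 3669 other probesets had the same sign. For the response at 4 h, 19 of 20 other probesets of called members had the same sign, and 88.7% of 3610 over all genes. In the double knockout against wild type, 9 called members were borne out in sign by every other probeset: Rab11a, Rab11fip1, Rab11fip5, Rab12, Rab24, Rab34, Rab3d, Rab3gap2 and Rab3ip. A further 15 had a single probeset above the floor, Rab20, Rab27a, Rab32 and Rab9 among them, and 12 had a probeset of the other sign.

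**Figure D4:**
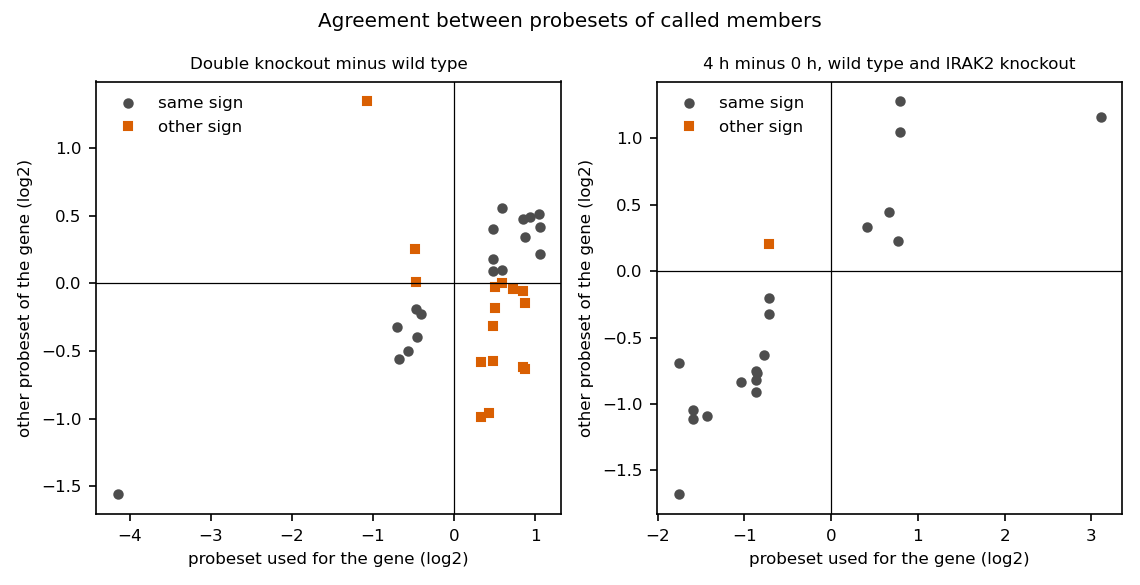
Each point sets the log2 difference of another probeset of a called member (vertical axis) against that of the probeset used (horizontal axis), for the double knockout minus wild type (left, 34 probesets) and the 4 h response (right, 20 probesets). Squares mark the other sign, 16 on the left and 1, a Rab22a probeset, on the right.

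Both probesets above the floor of Rab8a, a GTPase of exocytosis, macropinosomes and cilia, were far from wild type in the double knockout, with opposite signs. The probeset used read 6.03, 5.80 and 5.93 in the double knockout, 7.15, 7.18 and 7.08 in the IRAK2 knockout, against 7.28, 6.99 and 6.69 in wild type, a difference of -1.07 from wild type. The other Rab8a probeset differed from wild type by 1.35 log2 in the double knockout and by -1.15 in the IRAK2 knockout. The direction of Rab8a thus depends on the probeset. Rab31 was higher by 0.43 on the probeset used and differed by -0.96 on the second, and Rab6a was higher by 0.34 but differed by -0.99 and -0.58 on 2 others. Rab7b, higher by 0.85, had other probesets at -0.62 and 0.47. Rab10, not called on the probeset used (0.20), had 2 others at -0.61 and -0.88. Rab11fip1 was lower on both of its probesets, at -4.15 and -1.56 log2, and Rab3d was higher on all 3, by 1.06, 0.42 and 0.22.

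Genes that work with Rabs but lie outside the symbol rule were read from 4 lists. Each was read from 1 probeset, and its other probesets were not compared one by one. Beside their counts stand 16.2% of all genes rising and 29% falling at 2 h, 14.7% and 18% at 8 h, and 23.8% higher and 17.4% lower in the double knockout against wild type. The list of GTPase-activating proteins took in every Tbc1d symbol, by name and not by shown activity on a Rab. Of its 32 genes tested, 3 rose and 19 fell at 2 h, with a median of -0.376 beside -0.122 for all genes. At 8 h, 4 rose and 11 fell. Tbc1d14, a regulator of autophagy, read 8.22, 8.94 and 9.08 in the stimulated double knockout, 8.71, 6.86, 7.54 and 7.90 over 0 to 8 h in the IRAK2 knockout, against 8.84, 6.63, 7.15 and 7.54 in wild type, and changed by -2.03 at 2 h. In the double knockout 15 of the 32 were higher than in wild type and 2 lower, the largest being Tbc1d14 (1.64), Tbc1d8 (1.56) and Tbc1d24 (1.18). Of 29 exchange factors, 5 rose and 9 fell at 2 h, and 7 were higher and 1 lower in the double knockout. Dennd4c, an exchange factor for Rab10, fell by 1.96 at 2 h and was higher in the double knockout by 1.55.

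Of 37 effectors and tethers, 10 rose and 13 fell at 2 h, and 16 were higher and 5 lower in the double knockout. Ehd1, an ATPase that forms recycling tubules, read 11.12, 10.39 and 9.11 in the stimulated double knockout, 7.47, 11.69, 11.44 and 11.09 in the IRAK2 knockout, against 7.12, 11.70, 11.56 and 11.54 in wild type. Its response was 4.40 at 2 h, and its double-knockout difference -1.39 (SE 0.29, adjusted p 0.0054). Micall2, an effector of Rab13 and Rab8, rose by 1.95 at 2 h and differed by -1.65 in the double knockout. Plekhm1, which links Rab7 to lysosome fusion, changed by -2.997 at 2 h and by -1.53 at 4 h, and was 1.05 higher in the double knockout. Mical1, a redox enzyme that takes actin filaments apart, changed by -1.59, -2.38 and -2.11 over the 3 times and was 1.64 higher. Of 9 genes that insert Rabs into membranes or recycle them, 1 rose and 0 fell at 2 h, and 1 was higher and 3 lower in the double knockout. Rabac1, the prenylated Rab acceptor, read 4.18, 3.87 and 5.41 there, 6.70, 6.88 and 6.44 in the IRAK2 knockout, against 6.64, 6.50 and 6.34 in wild type, a difference of -2.01 (SE 0.33, adjusted p 0.0018). Its double-knockout value at 4 h lay just above the floor. In the IRAK2 knockout against wild type 0 genes of these 4 lists were called, where 0.765% of all genes were.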

How the data were processed

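RNA of 12 samples of mouse peritoneal macrophages, extracted with Trizol and labelled with the NuGEN Ovation system per the labels' protocols, was hybridised to Affymetrix arrays. The authors deposited log2 values of 45101 probesets on 12 arrays, made with RMA (no version stated) per the submitters' processing notes. Sequencing depth does not apply, and the number of arrays limits the precision.

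Gene symbols came from the platform's annotation (34945 probesets with 1 symbol, 932 with several, 9173 with none, 64 controls) and 34741 were matched by gene identifier to RefSeq. Some of the 64 controls are also counted among the probesets with several symbols or none. Each gene was read from the probeset with the highest mean over the 11 arrays other than the unstimulated double knockout. limma 3.58.1 (R 4.3.3) was fitted to the 10856 genes at or above the floor, with genotype and time as additive factors. The genotype fit used the 9 stimulated arrays (4 residual degrees of freedom), the response fit the 8 arrays of the IRAK2 knockout and wild type (3), and the slope fit on log2 time the 9 stimulated arrays (2). Fits were tested on simulated data. The labels give 1 sample per group, with nothing on donors.

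Members with a called change of at least 1 log2, the 5 with the highest mean and those completing small subfamilies are named; genes of the 4 outside lists are named only at 1 log2 or more. Members, roles and lists were chosen with earlier results of these data known, and the motifs were chosen after seeing the response. The kappaB pattern was replaced after its matches had been counted, first because it matched so many genes and then because the second one could not be printed here, and the falling member shown was changed with it from Rab9 to Rab3il1. The promoters printed were chosen with the matches known. Alternatives were the filter, the choice of probeset, centring, the arrays fitted and leaving out a time.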

Additional observations from a re-analysis of the deposited data

How the results depend on the processing

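Genotypes were matched within time in every genotype fit. No paired analysis was possible because no replicate number exists to block on, with 1 array for each genotype and time. Under alternatives, 49 counts of members stayed within 1.5 times the count given above and 14 did not. Some of the 49 were counts of 0 that stayed at 0. Most of the 14 were the single-array counts at 0.58 log2 given below, where a lower threshold can only raise a count. The tally is therefore no measure of how firm the calls are. Called members of the double knockout against wild type ranged from 16 to 28 when 1 time was left out (16 without the 4 h arrays, 15 of them among the 36, beside 19.5% of all genes), and against the IRAK2 knockout from 12 to 27 (12 without the 4 h arrays, beside 14.5%). Without the 2 h or the 8 h arrays, 25 and 28 members were called against wild type, beside 30.6% and 37.3% of all genes. Against the IRAK2 knockout these counts were 23 and 27, beside 27.7% and 36.9%. Why the counts differed was not tested. In the double knockout against wild type, the averaged probesets gave 26 called members of 53, 12 higher and 14 lower, beside 37.5% of all genes. Centring the arrays on their medians moved single arrays by -0.125 to 0.117 log2 and gave 34 called members, beside 40.4% of all genes. With the 2 genotypes alone, 2 members were called in the IRAK2 knockout against wild type, beside 5.2% of all genes. Single members were followed under alternatives only for the 40 results called at 1 log2 or more, and smaller called differences were not. Of the 240 values this gave, 238 kept their direction and call. Those of Rab8a turned with averaged probesets, to 0.19 (adjusted p 0.20) against wild type and 0.46 (adjusted p 0.015) against the IRAK2 knockout. At a threshold of 0.58 log2 in place of 1, single arrays gave 20, 18 and 16 members for the IRAK2 knockout against its own 0 h at 2, 4 and 8 h (25.4%, 22.8% and 16.9% of all genes measured), 24 and 24 for wild type at 4 and 8 h (27.8% and 25.6%), 22, 27 and 25 for the double knockout against wild type at 2, 4 and 8 h (28%, 33.1% and 29.4%), and 2, 2 and 5 for the IRAK2 knockout against wild type at 0, 4 and 8 h (2.75%, 4.9% and 9.1%). Dim probesets near the floor of 3.83 limit the size of a difference.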
